A study of Arabidopsis thaliana with 6 samples.

Results

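A set of 5 salt-responsive zinc finger genes of Arabidopsis thaliana, SZF1, ZAT10 (also called STZ), ZAT6, AZF1 and AZF2, were examined in plants that overexpress the NAC transcription factor gene ANAC069 and in plants in which that gene is knocked out, all of them under salt. The 5 genes were found by gene symbol or gene title in the authors' deposited tables of probe sets that differ between the genotypes. These tables hold 341 probe sets listed up and 226 listed down, out of 22810 probe sets on each array. All 5 genes are in the up table, each with 1 probe set, and no other title or symbol in these tables holds the words zinc finger. Of the 567 listed probe sets, 326 have neither a title nor a symbol there, so further zinc finger genes may be among them. A zinc finger gene can also have a title without these words, as does SZF2, described below.

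The overexpression group (OE) was line OE-3 and the knockout group (KO) was line KO-2, which carries the insertion SALK_095231C in ANAC069. Each group was therefore a single line, and which promoter drives ANAC069 in OE-3 is not stated in the labels. Plants of both groups were 4 weeks old and had been in 200 mM NaCl for 3 h. Total RNA was measured on Affymetrix ATH1 arrays, with 3 arrays per group from independent biological replicates, and the organ and the number of plants behind an array are not stated in the labels. No wild-type and no untreated plants were analysed here, so each value is a difference between OE and KO under salt and not a response to salt. In RNA from whole tissue, more cells that express a gene and more transcript per cell cannot be told apart.

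Zinc finger proteins hold a zinc ion between cysteine and histidine residues and use the fold to bind nucleic acids. ZAT10, ZAT6, AZF1 and AZF2 are of the C2H2 type, small nuclear proteins with a pair of fingers and a short repression motif (EAR) that recruits co-repressors, and their transcripts are known to accumulate early in salt and other stresses. SZF1 is of the CCCH type, with fingers in tandem, and it acts in salt tolerance together with its close relative SZF2. ANAC069 is reported to bind short CG-containing elements in promoters and to lower tolerance to salt and osmotic stress.

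The ANAC069 transcript had a signal of 2991, 2386 and 2360 in OE replicates 1, 2 and 3, against 386, 364 and 391 in KO replicates 1, 2 and 3. It was 2579 ± 357 in OE and 380.3 ± 14.4 in KO (SD, n = 3 each), which follows the labels. The place of the insertion among its probes is not stated, so the KO signal does not measure intact transcript. The values are MAS5 signals, a summary of the probes of a probe set in arbitrary units. Array medians lay between 149.9 and 186.1, and precision is limited by having 3 arrays in a group.

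SZF1 (AT3G55980), the CCCH gene, had the largest difference of the 5 with all arrays and no covariate. Its probe set aligns to chromosome 3 from 20776856 to 20778599 on the plus strand in the authors' deposited table, whose genome build the sources used here do not give. The signal was 3156, 3986 and 4643 in OE replicates 1, 2 and 3, against 219, 937 and 351 in KO replicates 1, 2 and 3. All OE arrays lay above all KO arrays, and the lowest OE signal was 3.37 times the highest KO signal. The means were 3928 ± 745 in OE and 502 ± 382 in KO (SD, n = 3 each). On the log2(signal + 16) scale the change, OE over KO, was 3.16 (SE 0.44), or 8.96-fold, and 6 of the 15922 probe sets tested had a larger one. KO replicate 2 stood apart from the other KO arrays, at 4.28 times the signal of KO replicate 1.

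ZAT10 (AT1G27730) encodes a C2H2 repressor that is known for roles in salt, drought and high light responses. Its probe set aligns to chromosome 1 from 9648301 to 9648985 on the minus strand. The signal was 3846, 4716 and 7894 in OE replicates 1, 2 and 3, against 263, 1881 and 1075 in KO replicates 1, 2 and 3. The groups did not overlap, yet the KO arrays alone spanned 7.14-fold, more than the 6.30-fold change between the groups (log2 2.66, SE 0.61). The means were 5485 ± 2131 in OE and 1073 ± 809 in KO (SD, n = 3 each). ZAT10 had the largest error of the 5 genes, and the lowest OE signal was 2.05 times the highest KO signal.

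ZAT6 (AT5G04340) encodes a C2H2 protein known for roles in phosphate homeostasis, root growth and stress tolerance. Its probe set aligns to chromosome 5 from 1216320 to 1217037 on the minus strand. The signal was 916, 1183 and 1623 in OE replicates 1, 2 and 3, against 159, 546 and 332 in KO replicates 1, 2 and 3. The arrays kept the order seen for SZF1 and ZAT10, with OE replicate 3 highest in OE and with KO replicate 2 highest and KO replicate 1 lowest in KO. The means were 1241 ± 357 in OE and 346 ± 194 in KO (SD, n = 3 each), a log2 change of 1.91 (SE 0.39) or 3.77-fold. The gap between the groups was the narrowest of the 5, with the lowest OE signal 1.68 times the highest KO signal.

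AZF1 (AT5G67450, ZF1 in RefSeq) encodes a C2H2 repressor whose transcript is known to accumulate under salt. Its probe set aligns to chromosome 5 from 26919141 to 26919879 on the minus strand, and it was the dimmest of the 5. The signal was 132, 289 and 249.5 in OE replicates 1, 2 and 3, against 43.4, 38.3 and 54.9 in KO replicates 1, 2 and 3. Here OE replicate 1 stood apart on the low side and the KO arrays were close to each other, within 1.43-fold. The means were 224 ± 81.8 in OE and 45.5 ± 8.47 in KO (SD, n = 3 each), a log2 change of 1.90 (SE 0.30) or 3.74-fold. The 16 added to every signal lowers the fold of so dim a gene, and the authors' deposited table gives 4.71-fold. Its log2 change was 2.21 with 1 added in place of 16, and 1.35 with 64 added. Detection calls were not used, so whether its KO signals lay above background was not checked.

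AZF2 (AT3G19580, ZF2 in RefSeq) encodes the relative of AZF1 that is also known to respond to abscisic acid, the hormone of drought and salt responses. Its probe set aligns to chromosome 3 from 6803292 to 6804114 on the minus strand. The signal was 1356, 1218 and 2048 in OE replicates 1, 2 and 3, against 261, 251 and 238 in KO replicates 1, 2 and 3. The KO arrays were within 1.10-fold of each other, and the lowest OE signal was 4.66 times the highest KO signal, the widest gap of the 5 genes. The means were 1541 ± 445 in OE and 250.01 ± 11.7 in KO (SD, n = 3 each), a log2 change of 2.51 (SE 0.20) or 5.71-fold.

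**Figure D1:**
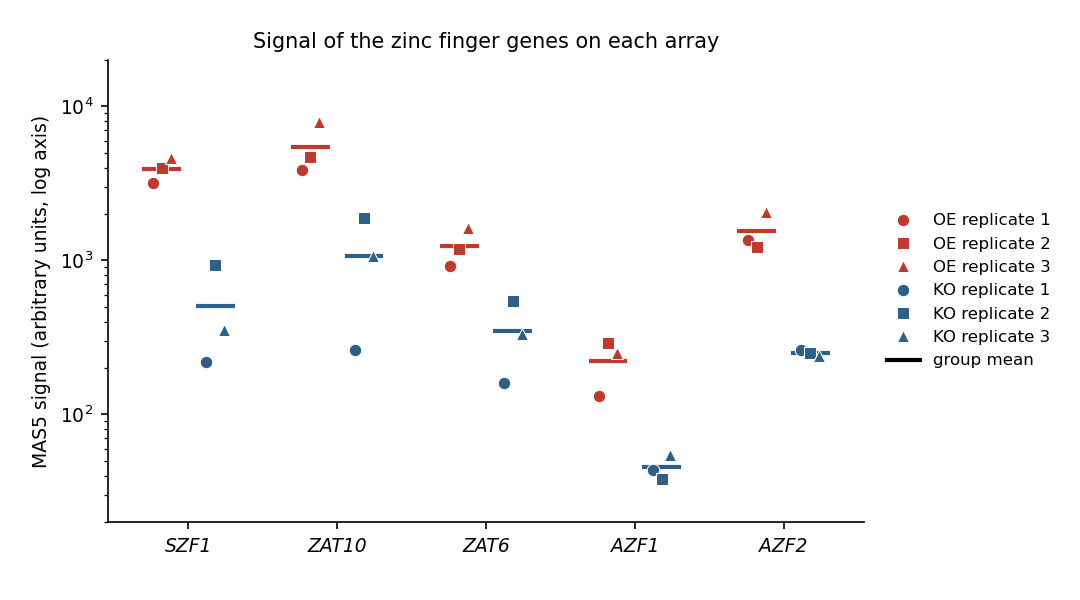
MAS5 signal (log axis, arbitrary units) of the 5 genes on each array, with OE in red to the left of KO in blue. The marker shape gives the replicate number and the short line is the group mean of 3 arrays. All OE points lie above all KO points of the same gene, and the KO points of SZF1, ZAT10 and ZAT6 spread 4.28-fold, 7.14-fold and 3.44-fold, against 1.43-fold and 1.10-fold for AZF1 and AZF2.

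The genes were selected on the p-value and the fold between OE and KO on these same arrays, since the authors' tables list probe sets with an unadjusted p up to 0.05 and a change of at least 2-fold. The differences above are for that reason a description and carry no test. In the authors' deposited table the folds were 9.32 for SZF1, 6.46 for ZAT10, 6.01 for AZF2, 4.71 for AZF1 and 3.94 for ZAT6, which rank 8, 23, 27, 48 and 67 by fold among the 341 listed up. ZAT10 was nearest to the p limit, at 0.0402 in the authors' deposited table, and ZAT6 was nearest to the fold limit. Zinc finger genes just outside the limits cannot be named, because gene names come from the same tables.

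All 5 probe sets passed the filter on dim probe sets. In limma, fitted over all 15922 probe sets tested, each of the 5 had a Benjamini-Hochberg adjusted p under 0.05 and was higher in OE, against 3.03% of all probe sets tested (483). In all 5 genes every OE signal exceeded every KO signal, which was so for 12.9% of all probe sets tested. The choice of the genes favoured both counts, and nothing is read from them. The median log2 change was 2.51 over the 5 genes and -0.08 over all probe sets tested. Shifting each array to the same median moved that over all probe sets to 0.09 and raised the change of every one of the 5 genes by the same amount, to between 2.07 and 3.33.

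**Figure D2:**
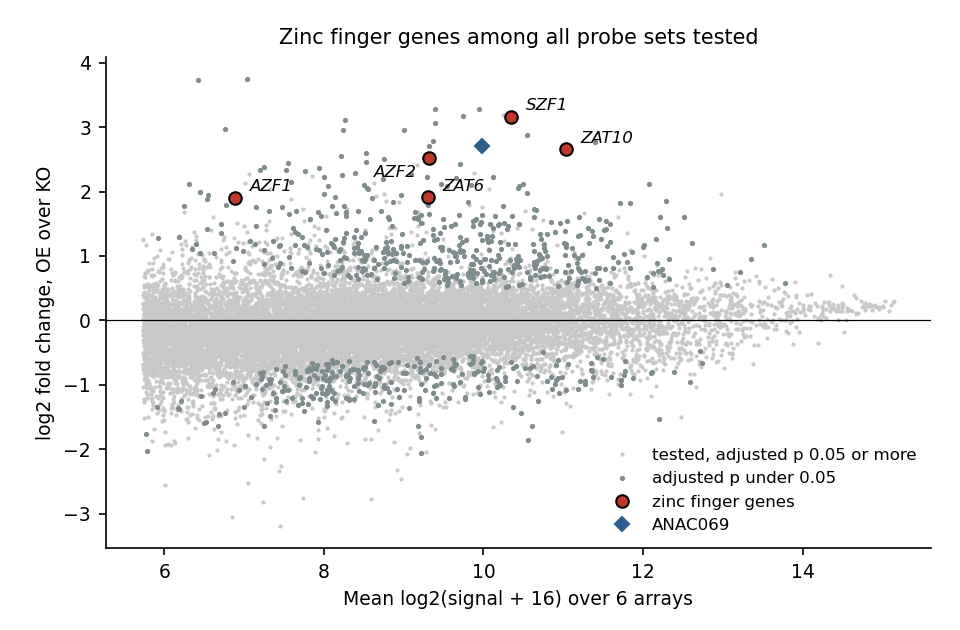
Log2 change, OE over KO, against the mean log2(signal + 16) over 6 arrays for the 15922 probe sets tested (grey, darker where the adjusted p was under 0.05), with the 5 zinc finger genes in red and ANAC069 in blue. SZF1 lies highest of the 5 at 3.16, and AZF1 is the dimmest of them.

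The order by size of the change was SZF1, ZAT10, AZF2, ZAT6 and AZF1 with all arrays and 16 added to each signal. It was not the same under every alternative. AZF1 was above ZAT6 with a pseudocount of 1 (2.21 against 1.97) and with quantile normalization (2.04 against 1.92). The same held without OE replicate 1, OE replicate 3, KO replicate 1 or KO replicate 3. Without KO replicate 1 both AZF2 (2.54) and AZF1 (1.88) were also above ZAT10 (1.87). With the RNA ratio covariate described below ZAT10 (4.36) was above SZF1 (4.01), and ZAT6 (2.94) was above AZF2 (2.78). Neighbours in this order were close: ZAT10 and AZF2 were 0.14 log2 units apart and ZAT6 and AZF1 were 0.01 apart, both less than the SE of either gene. To set the changes of a pair of genes against each other, the difference of their log2 values was taken on each array, which removes what both genes share on an array. Of the 10 pairs, 8 had differences that overlapped between OE and KO. The share over pairs of other probe sets was not computed, and nothing is read from this count. SZF1 changed more than ZAT6 by 1.25 log2 units (SE 0.21), and ZAT10 changed more than ZAT6 by 0.74 (SE 0.35), without overlap between the groups. For ZAT10 and ZAT6 the centred difference was -1.055 in KO replicate 1, against 0.025 and -0.082 in KO replicates 2 and 3. SZF1 exceeded AZF2 by 0.65 (SE 0.63) and ZAT10 by 0.51 (SE 0.42), and AZF2 exceeded ZAT6 by a similar margin (ZAT6 minus AZF2, -0.60, SE 0.53), and these overlapped.

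The 5 genes fell into 2 kinds by how the KO arrays spread. SZF1, ZAT10 and ZAT6 varied much between KO arrays: 98.4%, 99.3% and 97.5% of all probe sets tested had a smaller range of log2 values over the KO arrays. AZF1 and AZF2 did not, with 49.9% and 8.34% of probe sets below theirs. Between OE arrays the 5 were more alike, with 67.3% (SZF1), 91.1% (ZAT10), 84.5% (ZAT6), 91.4% (AZF1) and 81.0% (AZF2) of probe sets below theirs.

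With each gene centred on its own mean over the 6 arrays, KO replicate 2 was at -0.45 for SZF1, -0.14 for ZAT10 and -0.17 for ZAT6, whereas KO replicate 1 was at -2.47, -2.90 and -1.85 for the same genes. For AZF1 and AZF2 the KO arrays lay between -0.74 and -1.32. Once group means were taken out, SZF1 and ZAT6 were the most alike pair, with a root mean square difference of 0.21 log2 units over the 6 arrays, followed by ZAT10 and ZAT6 at 0.35. ZAT10 and AZF1 were the least alike at 0.89. AZF1 and AZF2 were at 0.39, with OE replicate 1 low in AZF1 but not in AZF2.

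**Figure D3:**
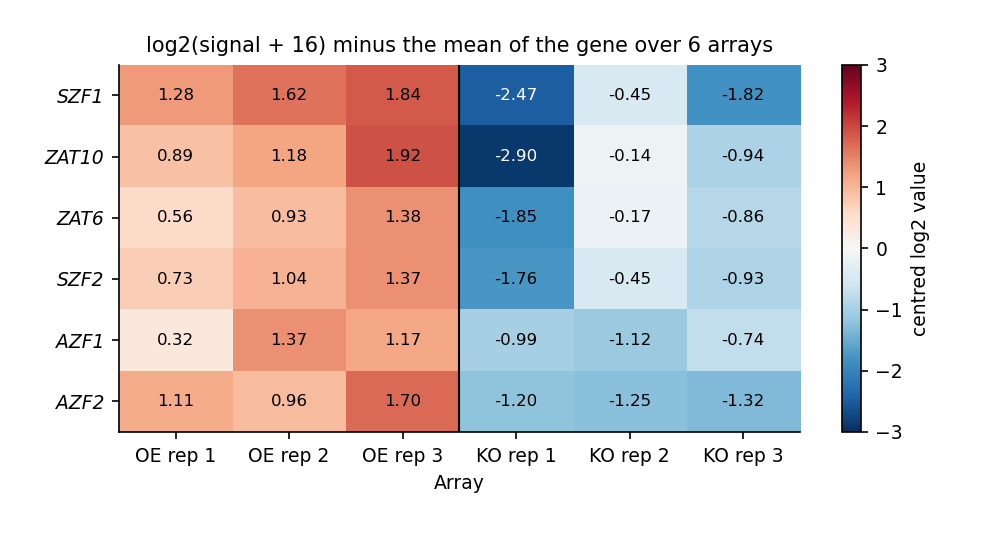
Log2(signal + 16) of each gene minus its mean over the 6 arrays, with OE arrays to the left of the black line and KO arrays to the right. The members with a wide KO spread and SZF2 are in the upper rows. KO replicate 2 is pale in SZF1, ZAT10, ZAT6 and SZF2 (-0.45 to -0.14), but at -1.12 and -1.25 in AZF1 and AZF2.

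The order of the arrays was also counted over all probe sets listed up by the authors. OE replicate 3 was the highest OE array for 4 of the 5 genes and for 56.9% of the 341 listed probe sets, against 30.6% of all probe sets tested. OE replicate 1 was the lowest OE array for 4 of the 5 and for 55.7% of those listed, against 33.1% of all. KO replicate 1 was the lowest KO array for 3 of the 5 and for 54.8% of those listed, against 39.3% of all. KO replicate 2 was the highest KO array for 3 of the 5 and for 40.5% of those listed, against 31.1% of all. Among those listed KO replicate 3 was more often the highest, in 44.6% (34.8% of all), and it was so for 1 of the 5, AZF1.

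A sign of RNA quality differed on average between the genotypes. The mean log2 ratio of 3' to 5' signal over 6 control probe set pairs was 1.97, 1.94 and 1.73 in OE replicates 1, 2 and 3, against 1.80, 1.57 and 1.53 in KO replicates 1, 2 and 3, so that KO replicate 1 lay above OE replicate 3. Within OE the ratio ran opposite to the signals of SZF1, ZAT10 and ZAT6, lowest in OE replicate 3, where these were highest. Within KO it was highest in KO replicate 1, where these were lowest, but lowest in KO replicate 3, whereas they were highest in KO replicate 2. AZF1 was highest in KO replicate 3, and the KO signals of AZF2 fell with the ratio, at 261, 251 and 238. With this ratio as a covariate the log2 changes were larger, at 4.01 (SE 0.56) for SZF1, 4.36 (SE 0.51) for ZAT10, 2.94 (SE 0.37) for ZAT6, 2.17 (SE 0.45) for AZF1 and 2.78 (SE 0.28) for AZF2. The SE of ZAT10 and ZAT6 was smaller in that fit and that of the other genes larger. All of them were called except AZF1, against 1.19% of all probe sets called higher in that fit. Since the ratio also differed between the genotypes, the 6 arrays do not separate the 2, and the larger changes are not a correction for RNA quality.

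Some calls were lost when 1 array was left out, with or without a smaller change. ZAT10, not called in either fit, was at 2.88 without OE replicate 1 and at 2.36 without OE replicate 3, against 2.66 with all arrays. AZF2 was called under all 15 alternatives, with log2 changes between 2.29 and 2.78. Without OE replicate 2 or OE replicate 3, AZF2 was the only one of the 5 genes called, against 0.415% and 0.553% of all probe sets called higher. Without KO replicate 3 neither ZAT10 nor ZAT6 was called (1.53% of all probe sets called higher), without KO replicate 2 AZF1 was not (0.961%), and without OE replicate 1 ZAT10 was not (3.2%). Without KO replicate 1 (3.44%), the lowest KO array for SZF1, ZAT10 and ZAT6, all 5 were called, and the log2 changes of these genes were 2.72, 1.87 and 1.47.

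**Figure D4:**
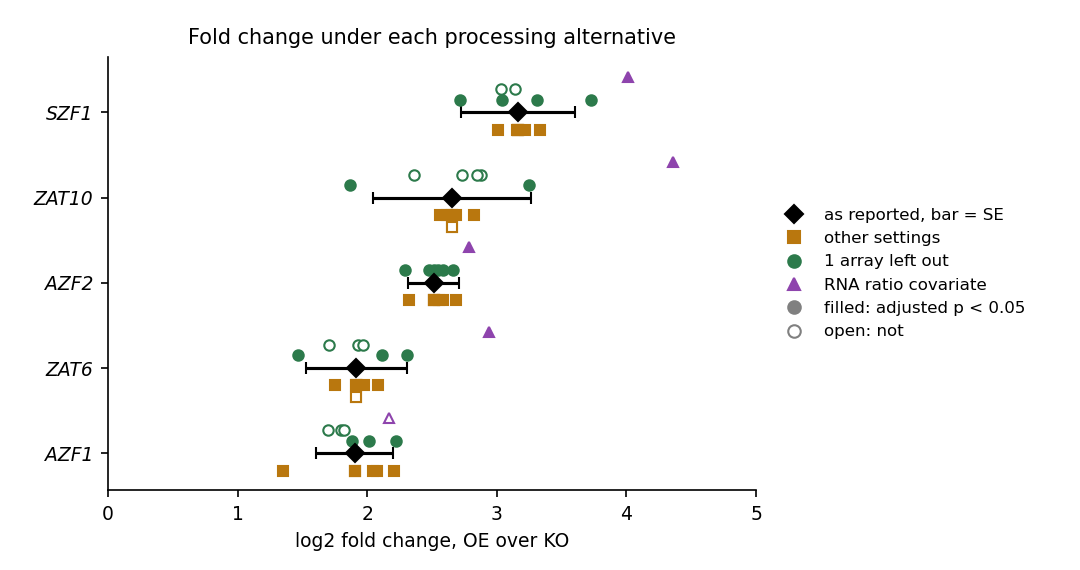
Log2 change, OE over KO, of each gene as reported (black, bar = SE) and under each processing alternative. Filled markers had an adjusted p under 0.05 over all probe sets tested and open markers did not. The spread is narrowest for AZF2 (2.29 to 2.78) and widest for ZAT10 (1.87 to 4.36).

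Relatives of the 5 genes were looked up in lists fixed by locus. A list gene has a named probe set only where the authors listed it, so the counts that follow come from that selection and are not evidence of a direction. Of 11 tandem CCCH genes, SZF1 and SZF2 had a named probe set, and both were called higher, against 3.03% of all probe sets tested. SZF2 (AT2G40140, CZF1 in RefSeq) had a signal of 1218, 1520.0 and 1909.7 in OE replicates 1, 2 and 3, against 205, 530.4 and 374 in KO replicates 1, 2 and 3. Its means were 1549 ± 347 in OE and 369.8 ± 163 in KO (SD, n = 3 each), a log2 change of 2.09 (SE 0.31). The change of SZF1 was larger by 1.07 (SE 0.27) without overlap between the groups. The centred difference was -0.002 in KO replicate 2, against -0.713 and -0.891 in KO replicates 1 and 3. Both relatives were higher in OE, and whether their changes differ in size was not tested. SZF2 was listed on the same criteria as SZF1, and it was not called without OE replicate 2 or OE replicate 3.

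Of 18 C2H2 genes of the same family, the 4 described above had a named probe set and all 4 were called higher (3.03% of all probe sets tested were). The remaining 14, ZAT12, ZAT11, ZAT7 and AZF3 among them, have no named probe set here and were not analysed. None of 7 co-repressor genes that act with EAR motifs, of 6 genes that scavenge reactive oxygen or of 8 salt and drought markers had one, nor did 4 leaf and 4 root markers, so the tissue was not checked.

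Among 6 MAP kinase pathway genes, MPK3 and MKK9, both listed up by the authors, had a named probe set and were called higher (3.03% of all probe sets tested were). MPK3 encodes a kinase known to phosphorylate ZAT10, and MKK9 a kinase upstream of MPK3. MPK3 (AT3G45640) had a signal of 5110.2, 5955 and 5070.2 in OE replicates 1, 2 and 3, against 2490.2, 2535 and 2667 in KO replicates 1, 2 and 3. Its KO arrays were within 1.07-fold of each other, and its log2 change was 1.06 (SE 0.12). MKK9 (AT1G73500) had 2413, 3675 and 3364 in OE replicates 1, 2 and 3, against 695, 1578 and 1094 in KO replicates 1, 2 and 3, a log2 change of 1.53 (SE 0.29). In KO its arrays took the order of SZF2, with KO replicate 2 highest and KO replicate 1 lowest. MKK9 was not called without OE replicate 2, OE replicate 3 or KO replicate 3.

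For each of the 5 genes, the 3 named probe sets most like it over the 6 arrays were taken from 539 others, by the root mean square difference of centred log2 values. These all come from the authors' tables, so a shared difference between the genotypes was given. Nearest to SZF1 were ORA47, an ERF transcription factor gene (0.19), HSPRO2, a gene of basal resistance (0.23), and WRKY33 (0.32). HSPRO2 had a signal of 5745, 7283 and 8344 in OE replicates 1, 2 and 3, against 621, 2324 and 734 in KO replicates 1, 2 and 3. It shared the high KO replicate 2 of SZF1. With group means taken out, HSPRO2 was again among the nearest to SZF1 (0.12), and ORA47 and WRKY33 were not.

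Nearest to ZAT10 were AT1G25400 (0.26), AT3G04640 (0.33) and the calmodulin-like gene CML38 (0.33). Nearest to ZAT6 was SZF2 at 0.15, ahead of AT3G56880 (0.22) and AT1G23710 (0.24), so the array profile of this C2H2 gene lay closest to that of a CCCH gene. SZF2 kept this place with group means taken out (0.12).

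AZF1 and AZF2 had other neighbours. Nearest to AZF1 were the receptor kinase genes SOBIR1 (0.16), RLK1 (0.21) and CRK10 (0.23). SOBIR1, which acts in immune signalling with receptor-like proteins, had 7295, 10906 and 10769 in OE replicates 1, 2 and 3, against 2284, 2464 and 3138 in KO replicates 1, 2 and 3, with OE replicate 1 lowest in OE as in AZF1. Nearest to AZF2 were AT2G41640 (0.23), the heat shock factor gene HSFA4A (AT4G18880, 0.24) and ANAC069 itself (0.31). ANAC069 did not share the high OE replicate 3 of AZF2. With group means taken out, none of these 3 genes remained among the nearest 3 of AZF2, and none of the 3 of AZF1 did.

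Annotation terms in the deposited tables were compared as well. All 5 genes carry the terms for zinc ion binding and for transcription factor activity. SZF1, ZAT10, AZF1 and AZF2 carry the response to chitin (the polymer of fungal walls), and ZAT6 does not. Among the 541 named genes, 322 listed up and 219 listed down, 43 genes with that term were listed up and 1 down. ZAT10, AZF1 and AZF2 carry transcription repressor activity, a term held by 9 named genes, all listed up. Salt terms were carried by ZAT10 (response to salt stress, 11 listed up and 3 down) and by AZF1 and AZF2 (hyperosmotic salinity response, 3 up and 1 down). Each of these counts includes those of the 5 genes that carry the term, all of them known to be listed up. By position, the genes lie apart on chromosomes 1, 3 and 5. None of the 20 protein-coding neighbours, 2 on each side of each gene in RefSeq's gene order, was among the 541 named genes. Over the whole array 567 of 22810 probe sets were listed, so nothing is read from this count. Whether each neighbour has a probe set on the array was not checked.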

How the data were processed

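Sample titles gave the groups and replicate numbers. The authors deposited a linear intensity for 22810 probe sets per array, made with MAS5 (no version given) per the submitters' processing notes. Each array had a mean of 500.0 after 2% of its probe sets was trimmed at each end. The authors also deposited an up and a down table with p-values, whose test is not stated, and fold ratios. Signed log2 folds matched log2 ratios of geometric means, OE over KO, within 6.86e-06. A further 48 per-array columns, whose names match none of the samples, were not used. Gene names came from these tables through NCBI RefSeq (TAIR10.1, for names and gene order only), which named 541 of 567 listed probe sets.

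OE was compared with KO by limma 3.58.1 in R 4.3.3 (lmFit, eBayes with a trend) on log2(signal + 16), with genotype as the only term. The 64 control probe sets and those at or below the 30th percentile of mean log2 signal were left out, which left 15922. Two-sided p-values were Benjamini-Hochberg adjusted over these, and a probe set is called when its adjusted p was under 0.05. The steps were tested on simulated data. The members and lists (8 lists, 64 loci) were chosen with earlier results of these data known. Named genes are the 5 genes, ANAC069, list genes with a named probe set and the 3 nearest profiles per gene. Alternatives were the pseudocount, filter, scaling, trend, an RNA ratio covariate, a replicate block and each array left out. No sequences were used here.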

Additional observations from a re-analysis of the deposited data

How the results depend on the processing

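The change of each of the 5 genes stayed positive under every alternative run. Log2 changes moved by more than the spread between replicates for AZF1 with a pseudocount of 64 (1.35) and for SZF1, ZAT10 and ZAT6 with the RNA ratio covariate (4.01, 4.36 and 2.94). With 1 array left out they ranged from 2.72 to 3.73 for SZF1, from 1.87 to 3.25 for ZAT10, from 1.47 to 2.31 for ZAT6, from 1.70 to 2.22 for AZF1 and from 2.29 to 2.66 for AZF2. Of the 5 genes, 3 were called with no filter and 3 without the variance trend, when ZAT10 and ZAT6 were lost. Calls over all probe sets were also fewer in these fits, at 261 and 161 higher in OE, against 483 in the main fit. With 1 array left out between 1 and 5 of the genes were called, against 0.415% to 3.44% of all probe sets called higher. Nothing is read from these counts or from those of the lists below. With the filter at the 50th percentile AZF1 was too dim to be tested. Called C2H2 genes numbered 2 with no filter and 2 without the trend, and 1 to 4 with 1 array left out. Called tandem CCCH genes numbered 0 to 2 with 1 array left out, and MAP kinase genes 1 to 2, with 1 under no filter, no trend and the RNA ratio covariate.

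Probe sets called higher and lower in OE numbered 483 and 293, against 261 and 76 with no filter, 794 and 143 with arrays shifted to the same median, 161 and 43 without the trend, and 189 and 19 with the covariate. Shifting the arrays made 84.7% of calls higher, against 62.2% as deposited. With 1 array left out they ranged from 66 to 548 higher and from 7 to 852 lower; fewest were called without OE replicate 2 (66 and 7) and OE replicate 3 (88 and 11). Deviations from the group means of same-numbered OE and KO arrays correlated at -0.24, -0.12 and 0.06, and those of differently numbered arrays at -0.21 to 0.27. With 3 arrays in a group such deviations constrain each other, so whether the numbers pair the arrays is not shown. With the number as a replicate block 238 were called higher and 37 lower, and all 5 genes were called. In that fit the SE fell from 0.44 to 0.33 for SZF1, from 0.61 to 0.42 for ZAT10 and from 0.39 to 0.27 for ZAT6. For AZF1 (0.29) and AZF2 (0.20) it changed little. The cause of these shifts was not tested. The planned promoter motif counts were not run, since no sequence was used here.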

Other observations

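Beyond the 5 genes, 24 other named genes carry the zinc ion binding term, 18 listed up and 6 listed down. Limma called 17 of them higher and 2 lower in OE, and 5 were not called, where 483 higher and 293 lower calls were made over all 15922 probe sets tested. The authors selected all of them on these arrays, so the split is a description. Several belong to other zinc-binding families, and those below were chosen after their values were seen. BT2, a gene of a BTB and TAZ domain protein, had a signal of 808 ± 483 in OE and 145 ± 62.2 in KO (SD, n = 3 each), a log2 change of 2.28 (SE 0.41). Its relative BT5 was at 800.5 ± 377 in OE and 177 ± 71.5 in KO, a log2 change of 2.05 (SE 0.34). The DOF-type transcription factor gene DOF1 (AT1G51700) was at 1.499 (SE 0.26). COL2, a B-box gene of the CONSTANS family, was called lower, at 114 ± 30.6 in OE and 283 ± 68.1 in KO, a log2 change of -1.21 (SE 0.24). Of the C2H2 and tandem CCCH genes of the fixed lists, only the 5 genes and SZF2 had a named probe set. All of these were listed up, and no direction is read from that.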
